A study of Glycine max and Glycine soja with 189 samples.

Results

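*GmCOL1b* (Glyma18g51320.1) and *GmCOL1a* (Glyma08g28370.1) are a pair of duplicated soybean genes, called homeologs, and are among the soybean genes closest to *CONSTANS* (*CO*) of Arabidopsis. Both were taken by their transcript identifiers, with earlier results of these data known, and they are 2 of the 73320 transcripts with deposited values. The study had already reported their high levels at T1 in SD, so those levels were known beforehand. The mRNA abundance was measured by RNA sequencing in 63 groups of 7 genotypes, 3 photoperiods and 3 time points, with 3 samples in each. It is given as RPKM, read numbers scaled for the length of the transcript and for the mapped reads of the library, so that levels of the 2 genes are compared per length. All samples are used.

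The genotypes were the cultivar Williams 82 (listed with E2), 4 near isogenic lines of the cultivar Clark, the wild soybean *G. soja*, whose alleles were not given in the sources used here, and Clark itself (e1E2E3E4e5E7). The near isogenic lines were L65-3366 (E1E2E3E4e5E7), L66-432 (e1e2E3E4e5E7), L74-441 (e1E2e3E4e5E7) and L92-1195 (e1E2e3E4E5E7), called here L65, L66, L74 and L92. Plants in the shift experiment (LD-SD) had 21 days of long days and then 5 days of short days, SD plants had 10 h of light and 14 h of dark, and LD plants had 16 h of light and 8 h of dark. All were sampled at 26 days by the sample records, whereas the methods put sampling of SD and LD plants at 3 weeks, so an age difference from LD-SD plants is possible and its part was not tested. T1 was 6:30 am, shortly before the lights came on, T3 was 2:30 pm, in the light under every photoperiod, and T5 was 10:30 pm, in the dark under LD-SD and SD and still in the light under LD. The sample records name the first trifoliate and the methods a whole shoot above the cotyledon, so the tissue is uncertain, and it was not checked against tissue markers.

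CO is a transcriptional regulator with zinc-binding B-box domains and a CCT domain. In Arabidopsis, a long-day plant, the clock sets the time of day at which *CO* mRNA is abundant. Light promotes breakdown of the CO protein in the early morning and stabilizes it toward the end of a long day, through different photoreceptors. The protein activates *FLOWERING LOCUS T* (*FT*), whose product moves from the leaf to the shoot apex and induces flowering. Soybean is a short-day plant. Its maturity loci include E1, a B3-domain regulator, E2, a homolog of *GIGANTEA*, and E3 and E4, which encode phytochrome A photoreceptors.

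Mapped reads, recovered from the steps of the RPKM values, ranged from 4.92 M to 18.2 M per sample (median 9.54 M). *GmCOL1b* had between 100 and 17169 reads per sample (median 506) and *GmCOL1a* between 48 and 6068 (median 288), so both were well above a floor of 3 reads in each sample. In 7 samples, marker transcripts went against the label. By 5 markers for each of Williams 82, L74 and *G. soja*, these were the libraries labelled LD Williams 82 T1 A, LD L65 T1 A, LD-SD L74 T3 B, LD-SD L66 T5 B and LD-SD L74 T5 B and C. By markers of the time of day, the seventh was a library of LD-SD L92 at T5 that carries no replicate letter here and was nearest to the T1 samples of LD-SD. It did not match those samples in every gene, since its *GmGIa* level was 49.8 RPKM and they had between 0.490 and 2.00 RPKM. Its levels of both homeologs were also below the range of those samples. For *GmGIa* and both homeologs its levels lay within the range of the LD samples at T1. The origin of this library was not tested. Neither homeolog was among the markers. L65, L66, L92 and Clark had no markers with a wide enough gap, so exchanges among these genotypes could not be seen. Averaged over genotypes, the calls that changed without these samples are given both ways. No rule for reads that match both homeologs was given in the sources used here, and such sharing could draw the 2 levels together. Its part was not tested.

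Before dawn the mRNA of both genes was among the most abundant in plants with short days. *GmCOL1b* at T1 ranged from 423 to 971 RPKM in LD-SD (median 571), from 492 to 1082 RPKM in SD (median 646) and from 64.8 to 225 RPKM in LD (median 128). By the mean of the 21 samples, only 62 transcripts of the table lay above it in LD-SD, 50 in SD and 447 in LD. *GmCOL1a* at T1 ranged from 167 to 373 RPKM in LD-SD (median 238), from 211 to 402 RPKM in SD (median 282) and from 23.0 to 115 RPKM in LD (median 56.3). All 21 LD-SD samples and all 21 SD samples were thus above every LD sample for both genes, whereas LD-SD and SD overlapped. How many other transcripts separate in this way was not counted, here or at T3 and T5. These are levels in whole tissue, in which fewer cells of a type and less RNA per cell cannot be told apart.

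At T3, in the light, both genes were far below their T1 level in each photoperiod. *GmCOL1b* ranged from 14.4 to 57.2 RPKM in LD-SD (median 24.5), from 16.7 to 36.2 RPKM in SD (median 25.2) and from 7.49 to 19.3 RPKM in LD (median 11.3). *GmCOL1a* ranged from 9.59 to 29.7 RPKM in LD-SD (median 20.8), from 8.27 to 19.6 RPKM in SD (median 14.2) and from 6.92 to 17.8 RPKM in LD (median 9.43). For *GmCOL1b*, 17 of 21 LD-SD samples and 19 of 21 SD samples lay above every LD sample, and for *GmCOL1a* the medians stepped down in the order LD-SD, SD and LD with overlap between neighbours.

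At T5 the order was turned round. *GmCOL1b* ranged from 12.9 to 181 RPKM in LD-SD (median 19.95), from 6.40 to 15.9 RPKM in SD (median 10.1) and from 99.8 to 214 RPKM in LD (median 162). *GmCOL1a* ranged from 6.84 to 113 RPKM in LD-SD (median 12.02), from 3.92 to 9.31 RPKM in SD (median 6.84) and from 60.5 to 121 RPKM in LD (median 79.5). The highest LD-SD value of each gene came from the L92 library without a letter. Without the 7 samples the highest LD-SD values were 42.1 RPKM for *GmCOL1b* and 26.1 RPKM for *GmCOL1a*, and no LD-SD sample reached the LD range.

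**Figure D1:**
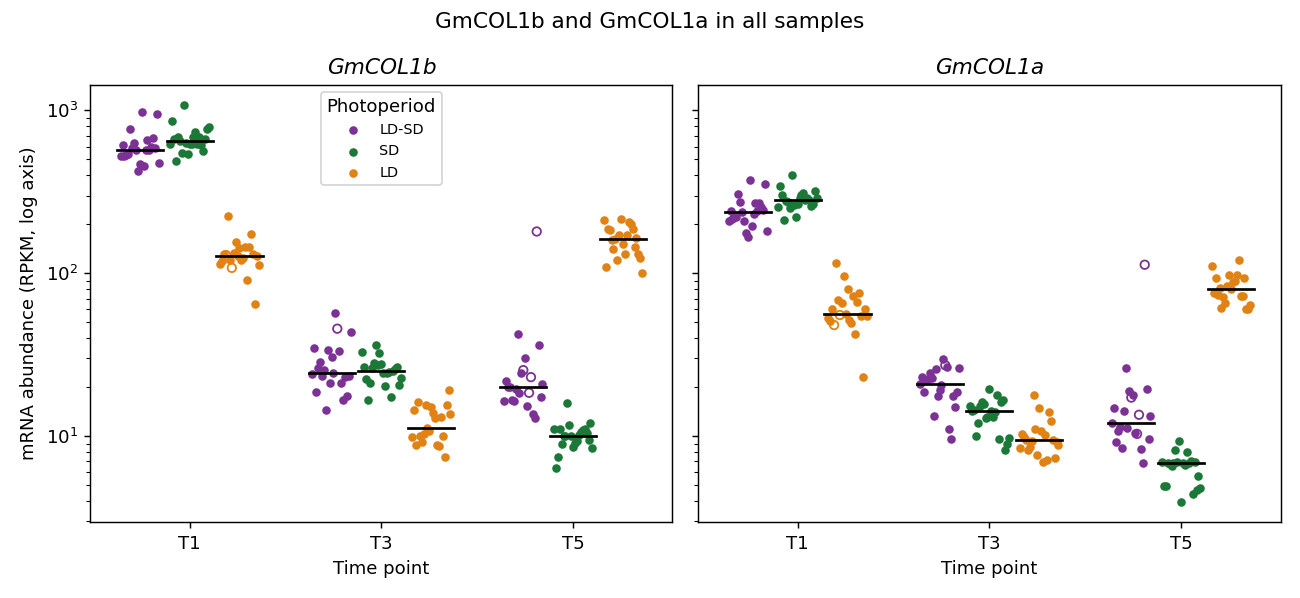
mRNA abundance of *GmCOL1b* (left) and *GmCOL1a* (right) in RPKM on a log axis at T1, T3 and T5, with 21 samples for each photoperiod, black lines at the medians and open circles for the 7 samples whose markers went against the label. LD-SD and SD samples of *GmCOL1b* sit between 423 and 1082 RPKM at T1 and LD samples between 64.8 and 225 RPKM, and at T5 the LD samples are the highest except for 1 LD-SD sample at 181 RPKM.

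The day course differed between photoperiods. In LD-SD and in SD, the mean of each gene was highest at T1 in all 7 genotypes. In LD it was highest at T5 in all 7 genotypes for *GmCOL1b* and in 6 of 7 for *GmCOL1a*, with Williams 82 highest at T1, and lowest at T3 in all 7 for both genes. Without the 7 samples whose markers went against the label, the counts of genotypes highest at T5 in LD were 6 of 7 and 5 of 7, since *GmCOL1b* in Williams 82 then averaged 173 RPKM at T1 and 162 RPKM at T5, and *GmCOL1a* in L65 80.9 and 73.7 RPKM. The mean of *GmCOL1b* at T1 was 21.6 times that at T3 in LD-SD, 26.7 times in SD and 10.7 times in LD. The same folds of *GmCOL1a* were 11.8, 20.7 and 6.13, smaller than those of its homeolog in each photoperiod.

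In limma on log2(RPKM + 1), averaged over genotypes, *GmCOL1b* was higher at T1 than at T5 by 4.64 ± 0.13 in LD-SD and by 5.92 ± 0.13 in SD (log2 difference ± SE, adjusted p = 2.69e-67 and 7.86e-80), and *GmCOL1a* by 3.99 ± 0.12 and 5.28 ± 0.12 (adjusted p = 1.04e-60 and 6.56e-75). Of the 61180 transcripts tested, 12.4% were called higher at T1 in LD-SD and 13.8% in SD. Against T3 the T1 level of *GmCOL1b* was higher by 4.43 ± 0.13 in LD-SD, 4.69 ± 0.13 in SD and 3.32 ± 0.13 in LD (adjusted p = 9.66e-66, 1.00e-68 and 8.94e-52), and that of *GmCOL1a* by 3.51 ± 0.12, 4.29 ± 0.12 and 2.48 ± 0.12 (adjusted p = 3.60e-55, 4.16e-65 and 1.77e-39). Here 26.1%, 30.7% and 17.6% of transcripts were called higher at T1.

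T3 and T5 were nearer to each other in LD-SD than in the other photoperiods. *GmCOL1b* in LD-SD differed between T3 and T5 by 0.20 ± 0.13, which did not pass the threshold (adjusted p = 0.16), whereas *GmCOL1a* was higher at T3 by 0.48 ± 0.12 (adjusted p = 0.00048), as were 20.0% of transcripts. *GmCOL1b* passed as well at 0.41 without the 7 samples (adjusted p = 0.00075), at 0.47 with the replicate block (adjusted p = 0.015) and at 0.32 with median-of-ratios scaling (adjusted p = 0.036), and without letter C *GmCOL1a* did not (adjusted p = 0.26). With the block, the level of each time point was taken at a reference letter. In SD both were higher at T3 than at T5, by 1.23 ± 0.13 and 0.98 ± 0.12 (adjusted p = 1.62e-16 and 3.70e-12, with 17.7% of transcripts higher). In LD the T3 minus T5 differences were −3.63 ± 0.13 and −2.91 ± 0.12 (adjusted p = 6.96e-56 and 2.36e-46, with 28.0% of transcripts lower), so that the low point of LD at T3 lay far below its late evening level.

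Dawn and late evening in LD lay close together. The difference of T1 minus T5 was −0.31 ± 0.13 for *GmCOL1b* and −0.43 ± 0.12 for *GmCOL1a* (adjusted p = 0.026 and 0.0014, with 50.4% of transcripts called lower), beside a median of −0.15 over all transcripts. With median-of-ratios scaling these were −0.055 and −0.18 and neither passed the threshold (adjusted p = 0.76 and 0.24), and neither did *GmCOL1a* without letter A (adjusted p = 0.15) or *GmCOL1b* without A or C (adjusted p up to 0.52).

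The day course changed with photoperiod by interaction terms. The T1 minus T5 difference was larger in SD than in LD by 6.23 ± 0.18 for *GmCOL1b* and by 5.71 ± 0.18 for *GmCOL1a* (adjusted p = 1.70e-64 and 4.44e-61), where 24.7% of transcripts were called in that direction, and it was larger in LD-SD than in LD by 4.94 ± 0.18 and 4.42 ± 0.18 (adjusted p = 2.82e-53 and 5.70e-49, with 25.7% called). Between LD-SD and SD it was −1.28 ± 0.18 and −1.29 ± 0.18 (adjusted p = 1.11e-08 and 6.48e-09), a direction in which 6.46% of transcripts were called, so that the amplitude from T1 to T5 was smaller after the shift than in SD. The T1 minus T3 difference was larger in SD than in LD by 1.36 ± 0.18 and 1.82 ± 0.18 (adjusted p = 2.03e-11 and 9.91e-18, with 40.1% called) and larger in LD-SD than in LD by 1.11 ± 0.18 and 1.04 ± 0.18 (adjusted p = 2.66e-08 and 1.27e-07, with 33.5% called). Between LD-SD and SD it was −0.25 ± 0.18 for *GmCOL1b*, which did not pass (adjusted p = 0.27), and −0.78 ± 0.18 for *GmCOL1a*, which did (adjusted p = 0.00012, with 24.3% called).

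SD and LD had been kept throughout, and their comparison gives the level of each gene under constant photoperiods at the same clock times. At T5 SD plants were in the dark and LD plants in the light. The night that ended after T1 lasted 14 h in SD and 8 h in LD. The parts of light at sampling and of day-course timing in these differences were not tested. At T1 the mean of *GmCOL1b* was 674 ± 128 RPKM in SD and 130 ± 31.0 RPKM in LD (mean ± standard deviation of 21 samples each), a ratio of 5.16, and that of *GmCOL1a* was 284 ± 40.8 and 61.9 ± 19.3 RPKM, a ratio of 4.59. The log2 differences were 2.38 ± 0.08 and 2.23 ± 0.09 (adjusted p = 4.44e-43 and 1.01e-39), where 33.0% of the 61237 transcripts tested were called higher. Each genotype on its own passed the test for both genes, 7 of 7, against 13.2% of all tests by genotype at T1 in that direction. The differences by genotype lay between 1.98 and 2.91 for *GmCOL1b* and between 1.78 and 2.74 for *GmCOL1a*.

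At T3 the rise of *GmCOL1b* in SD was by 1.01 ± 0.08 and that of *GmCOL1a* by 0.41 ± 0.09 (adjusted p = 7.35e-19 and 3.33e-05, with 20.3% of transcripts called higher). By genotype, 6 of 7 passed for *GmCOL1b* and 1 of 7 for *GmCOL1a*, which was L74, against 9.33% of all such tests. *G. soja* was the genotype in which *GmCOL1b* did not pass, with a difference of 0.50. At T5 both genes were lower in SD, with differences of −3.85 ± 0.08 for *GmCOL1b* and −3.48 ± 0.09 for *GmCOL1a* (adjusted p = 3.69e-59 and 2.94e-54, with 20.4% of transcripts called lower). Here each of the 7 genotypes passed for both genes, against 5.53% of all tests by genotype, and the 21 samples of SD lay below every LD sample. The mean of *GmCOL1b* in SD was 0.0629 times that in LD at T5, and that of *GmCOL1a* 0.0783 times.

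How far 5 short days brought LD plants to the SD level was measured as LD-SD against SD, and as the percentage of the distance from LD to SD that LD-SD had covered on the log2(RPKM + 1) scale. At T1 the LD-SD mean was 89.9% of the SD mean for *GmCOL1b* and 85.4% for *GmCOL1a*, and 93.0% and 89.0% of the distance had been covered. The LD-SD minus SD differences of −0.17 ± 0.13 and −0.24 ± 0.12 did not pass the threshold (adjusted p = 0.35 and 0.13), where 28.0% of transcripts did. Without the 7 samples the difference of *GmCOL1a* was the same and passed (adjusted p = 0.0348), and that of *GmCOL1b* did not (adjusted p = 0.20). By genotype, none of 7 passed for either gene, also at an unadjusted p below 0.05, against 1.83% of all such tests. The LD-SD mean by genotype was between 77.5% of the SD mean in Clark and 104% in L66 for *GmCOL1b*, and between 73.6% in Clark and 98.3% in Williams 82 for *GmCOL1a*.

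At T3 the homeologs parted. *GmCOL1b* averaged 28.0 ± 10.5 RPKM in LD-SD and 25.2 ± 4.82 RPKM in SD, which was 111% of the SD level and 109% of the distance, and the difference of 0.09 ± 0.13 did not pass (adjusted p = 0.58). *GmCOL1a* averaged 20.6 ± 5.38 RPKM in LD-SD and 13.7 ± 3.06 RPKM in SD, or 150% of the SD level, and was higher by 0.54 ± 0.12 (adjusted p = 0.00011, with 33.7% of transcripts called higher). Its LD-SD level thus went past the SD level, and its position was 231% of a distance between LD and SD that was itself small, so that the percentage by genotype ran from 29.3% in L92 to 1389% in *G. soja*. By genotype, 0 of 7 passed for *GmCOL1b* (1 at an unadjusted p below 0.05) and 1 of 7 for *GmCOL1a*, which was *G. soja* with a difference of 1.04, against 7.20% of all such tests. In *G. soja* the values of *GmCOL1a* at T3 were 15.1, 18.7 and 26.3 RPKM in LD-SD, against 8.27, 8.97 and 9.75 RPKM in SD, with no overlap. Without the 7 samples the counts were 1 and 3.

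At T5 neither gene had reached the SD level. *GmCOL1b* averaged 29.0 ± 35.5 RPKM in LD-SD and 10.1 ± 1.92 RPKM in SD, which was 287% of the SD level, and *GmCOL1a* averaged 17.96 ± 22.2 RPKM in LD-SD and 6.40 ± 1.35 RPKM in SD, which was 281%. The distance covered was 71.0% and 70.0%. The LD-SD minus SD differences were 1.12 ± 0.13 and 1.04 ± 0.12 (adjusted p = 2.97e-13 and 3.11e-12, with 16.8% of transcripts called higher). Each of the 7 genotype means was higher in LD-SD for both genes, and 4 of 7 genotypes passed for each gene, against 2.76% of all such tests. For *GmCOL1b* these were L66, L92, *G. soja* and Clark, and for *GmCOL1a* L65, L66, L92 and *G. soja*. In L66, *GmCOL1b* was 24.6, 25.4 and 30.3 RPKM in LD-SD, against 9.97, 8.54 and 9.06 RPKM in SD, a difference of 1.44 ± 0.33 (adjusted p = 0.0018). In Clark it was 16.4, 21.7 and 19.95 RPKM in LD-SD, against 11.1, 6.40 and 7.44 RPKM in SD, a difference of 1.15 ± 0.33 (adjusted p = 0.030). In neither line did the photoperiods overlap, and the L66 library at 25.4 RPKM is the one that carried the L74 markers. For *GmCOL1b* all 7 genotypes were without overlap between LD-SD and SD at T5, and 6 of 7 for *GmCOL1a*. The share of all transcripts without overlap was not counted, and groups of 3 samples can separate without a difference in level.

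The L92 value rested on 1 library. *GmCOL1b* in LD-SD L92 at T5 was 13.7, 12.9 and 181 RPKM, and *GmCOL1a* 8.32, 6.84 and 113 RPKM, the last being the library without a letter. Without the 7 samples the difference in L92 was 0.27 for *GmCOL1b* and 0.28 for *GmCOL1a*, and neither passed (adjusted p = 0.82 and 0.80). The differences over all genotypes were then 0.91 and 0.85 and still passed, the LD-SD means were 204% and 201% of the SD means, and 76.4% and 75.4% of the distance was covered. Again 4 of 7 genotypes passed for each gene, with L65 in place of L92 for *GmCOL1b* and Clark in place of L92 for *GmCOL1a*.

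**Figure D2:**
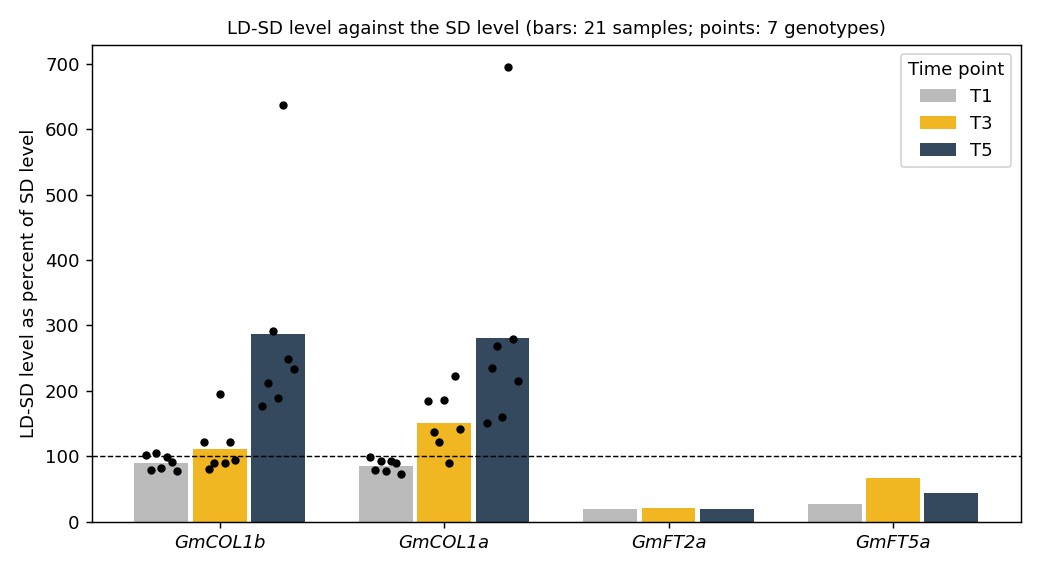
LD-SD level as a percentage of the SD level (linear axis from 0, dashed line at 100%) for *GmCOL1b*, *GmCOL1a*, *GmFT2a* and *GmFT5a* at T1, T3 and T5, with bars for the means of all 21 samples and points for the 7 genotypes of the homeologs. The homeologs are at 89.9% and 85.4% at T1 and at 287% and 281% at T5, where the highest point of each is L92, and *GmFT2a* is between 18.7% and 20.6%.

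Set against LD, both genes differed after 5 short days in every genotype at T1 and T5, with LD-SD plants in the dark and LD plants in the light at T5. *GmCOL1b* in LD-SD was higher than in LD by 2.21 ± 0.13 at T1 and by 1.10 ± 0.13 at T3, and its difference at T5 was −2.73 ± 0.13 (adjusted p = 2.44e-34, 1.34e-13 and 8.34e-42). *GmCOL1a* was higher by 1.99 ± 0.12 at T1 and by 0.95 ± 0.12 at T3, and its difference at T5 was −2.44 ± 0.12 (adjusted p = 7.02e-31, 3.59e-11 and 1.36e-37). The shares of transcripts called in the same direction were 31.7%, 21.6% and 14.4% at T1, T3 and T5. By genotype, 7 of 7 passed at T1 and at T5 for both genes, against 11.7% and 1.79% of all such tests, and at T3 5 of 7 passed for *GmCOL1b* and 4 of 7 for *GmCOL1a*, against 7.62%. SD and LD samples are shared between these comparisons.

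**Figure D3:**
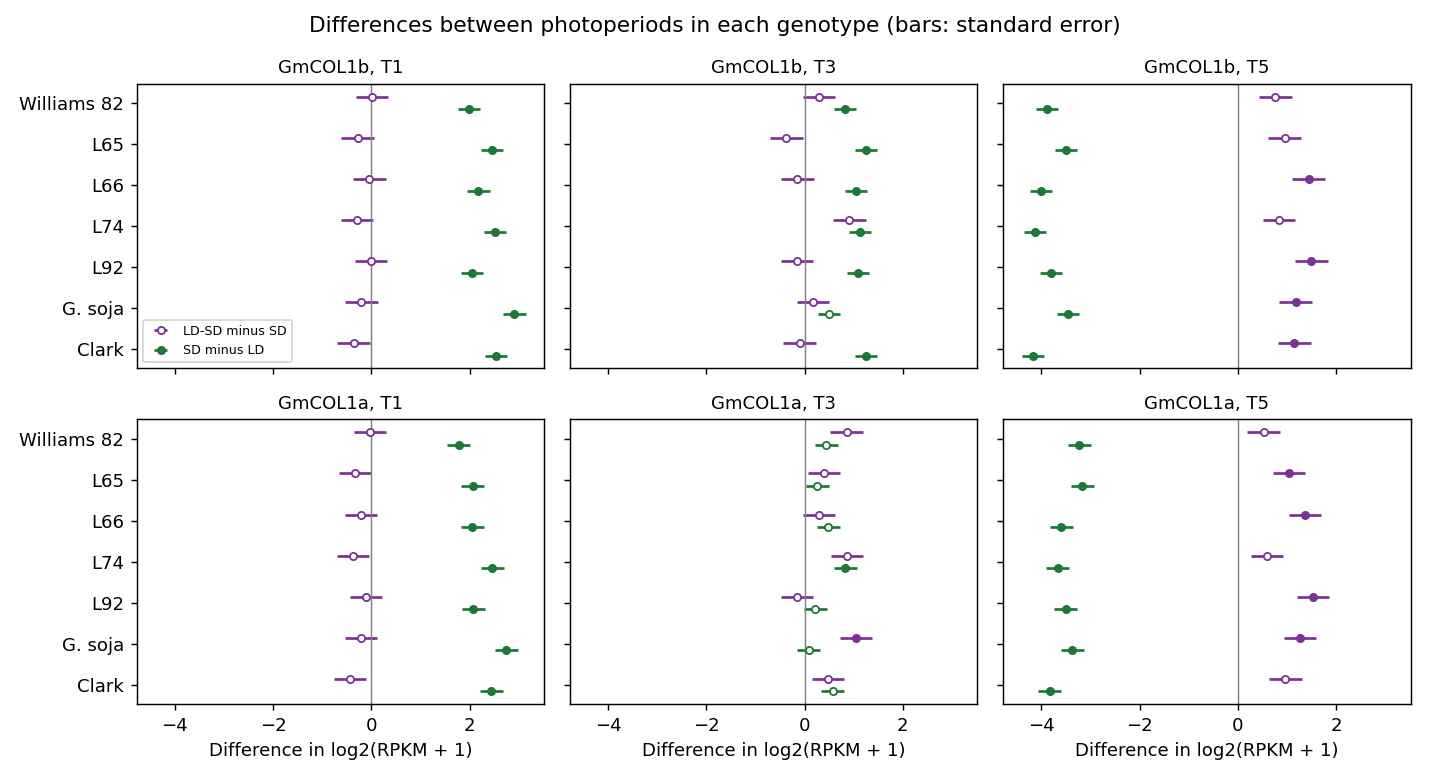
Differences in log2(RPKM + 1) between photoperiods in each genotype (LD-SD minus SD in purple, SD minus LD in green), with standard errors as bars, filled points where the adjusted p was below 0.05 and open points where it was not. SD minus LD is positive at T1 and negative at T5 in all 7 genotypes of both genes, and LD-SD minus SD is open in each genotype at T1 and filled in 4 of 7 at T5.

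The 2 homeologs were not expressed in a fixed proportion. *GmCOL1b* was the more abundant in all but 8 samples, and the ratio of *GmCOL1b* to *GmCOL1a* ranged from 0.794 to 3.22 (median 1.87). These 8 samples were all at T3, with 2 of them in LD-SD and 6 in LD. At T1 the ratio ranged from 2.16 to 2.78 in LD-SD (median 2.47), from 2.14 to 2.74 in SD (median 2.36) and from 1.61 to 2.82 in LD (median 2.16). At T3 it ranged from 0.953 to 1.92 in LD-SD (median 1.26), from 1.38 to 3.22 in SD (median 1.75) and from 0.794 to 2.13 in LD (median 1.18). At T5 it ranged from 1.29 to 2.16 in LD-SD (median 1.65), from 1.07 to 2.504 in SD (median 1.54) and from 1.46 to 2.59 in LD (median 2.00). The median ratio was thus highest before dawn in each photoperiod, while its low point was T3 in LD-SD and LD and T5 in SD.

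Ratios were compared on the log2 scale by two-sided permutation within genotypes (for genotypes, within photoperiod and time point), with 100000 draws and adjustment over 24 tests, for which the smallest p that the draws can give is 1e-05. From T1 to T3 the log2 ratio differed by 0.91 ± 0.09 in LD-SD, by 0.35 ± 0.07 in SD and by 0.84 ± 0.13 in LD (SE over 7 genotypes, permutation adjusted p = 4.00e-05, 6.86e-05 and 4.00e-05), with the T1 ratio the higher in 7, 6 and 7 of 7 genotypes. T1 was also above T5 by 0.61 ± 0.04 in LD-SD and by 0.57 ± 0.06 in SD, in 7 of 7 genotypes each (permutation adjusted p = 4.00e-05 for both). In LD the T1 minus T5 difference of 0.13 ± 0.07 did not pass (permutation adjusted p = 0.081). The T3 minus T5 difference was −0.30 ± 0.08 in LD-SD and −0.71 ± 0.15 in LD, negative in each of the 7 genotypes, and 0.22 ± 0.07 in SD, positive in 6 of 7 (permutation adjusted p = 0.00068, 4.00e-05 and 0.013). Without letter C the LD-SD difference did not pass (permutation adjusted p = 0.082), nor did the SD difference without *G. soja* or some single letters.

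Between photoperiods, the widest gap in the ratio was at T3. The SD ratio was 1.54 times the LD ratio there, a log2 difference of 0.63 ± 0.11 in the same direction in 7 of 7 genotypes (permutation adjusted p = 4.00e-05). The LD-SD ratio at T3 was 0.716 times that of SD, a log2 difference of −0.48 ± 0.14 with 2 of 7 genotypes higher (permutation adjusted p = 9.00e-05), and its difference from LD of 0.14 ± 0.17, with 5 of 7 genotypes higher, did not pass (permutation adjusted p = 0.27). Without *G. soja* the LD-SD minus LD difference was 0.25 and passed (permutation adjusted p = 0.047). The 2 genotypes with a higher ratio in LD-SD than in SD at T3 were L74 (1.62 against 1.56) and L92 (1.65 against 1.63).

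At T1 and T5 the ratio moved less. At T1 it was 1.06 times as high in LD-SD as in SD and 1.10 times as high in SD as in LD (permutation adjusted p = 0.013 for both), in 7 and 6 of 7 genotypes, and 1.16 times as high in LD-SD as in LD (permutation adjusted p = 0.00016, 7 of 7 genotypes). Neither of the first pair of calls held when some single replicate letters were left out, the LD-SD to SD one without letter C (permutation adjusted p = 0.30) and the SD to LD one without B (0.24) or C (0.088). At T5 the ratio was 0.833 times as high in LD-SD as in LD and 0.811 times as high in SD as in LD (permutation adjusted p = 0.00068 and 0.0014), and without letter A neither passed (permutation adjusted p = 0.14 for both). LD-SD and SD differed by 0.04 ± 0.07 at T5 (permutation adjusted p = 0.70).

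**Figure D4:**
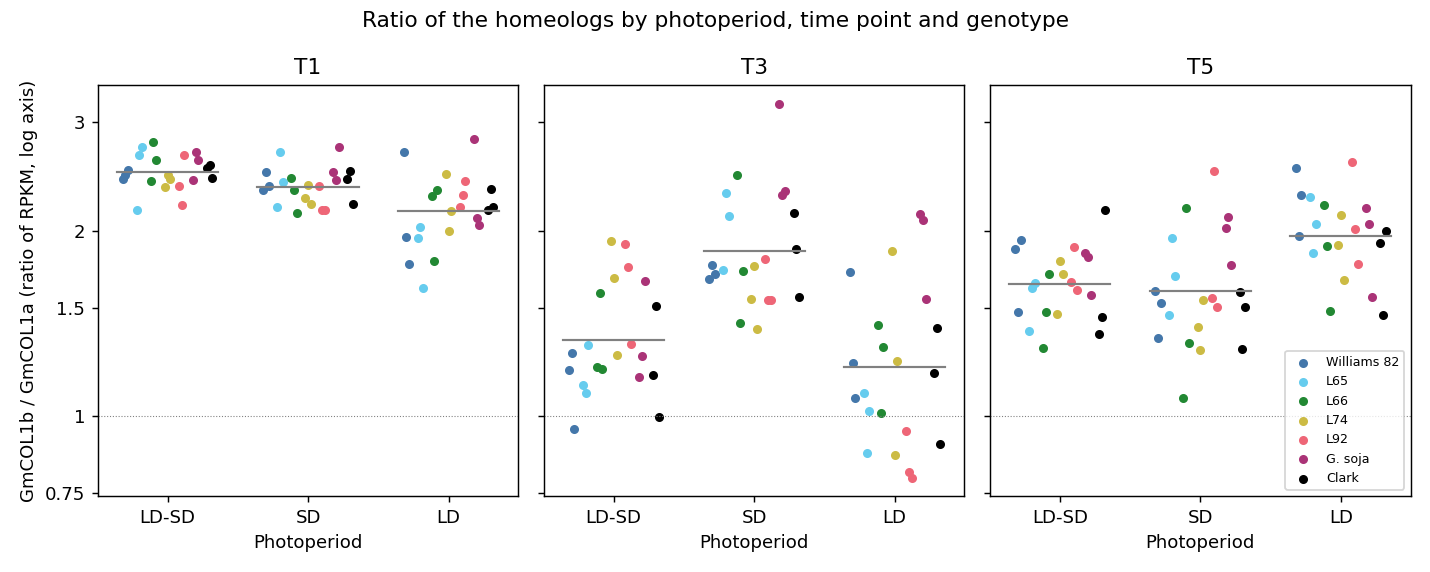
Ratio of *GmCOL1b* to *GmCOL1a* in RPKM (log axis, dotted line at 1) by photoperiod in a panel for each time point, with 3 samples for each genotype in its own colour and grey lines at the means of the log2 ratio. The T1 samples lie between 1.61 and 2.82, the 8 samples below 1 are at T3 in LD-SD and LD, and the highest value, 3.22, is a *G. soja* sample in SD at T3.

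Of the 6 genotypes set against Clark, the ratio passed the test in *G. soja* alone. Over the 9 combinations of photoperiod and time point its log2 ratio averaged 1.04, against 0.79 in Clark, a difference of 0.24 ± 0.08 (SE over the 9 combinations, positive in 9 of 9, permutation adjusted p = 0.0012). In the other 5 genotypes the difference from Clark was between 0.00 (L65) and 0.04 (Williams 82), with permutation adjusted p between 0.59 and 0.99 and standard errors from 0.03 to 0.09. The values of *G. soja* were most apart at T3. The ratio there was 1.16, 1.25 and 1.66 in LD-SD, 3.22, 2.29 and 2.32 in SD and 2.13, 2.08 and 1.55 in LD. In Clark it was 1.16, 1.51 and 0.996 in LD-SD, 2.14, 1.87 and 1.56 in SD and 1.18, 1.39 and 0.9004 in LD. The *G. soja* samples lay above those of Clark in SD and in LD, and the genotypes overlapped in LD-SD. The reads of *G. soja* were aligned to transcripts of Williams 82, and the part of sequence differences in this ratio was not tested.

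The levels themselves were not shown to differ between genotypes. Over the 6 genotypes and 9 combinations of photoperiod and time point, 0 of 54 limma differences from Clark passed the threshold for either gene, where 1.79% of all such tests did. At an unadjusted p below 0.05 there were 2 for *GmCOL1b* and 3 for *GmCOL1a*. The differences ranged from −0.47 to 0.80 for *GmCOL1b* and from −0.71 to 0.66 for *GmCOL1a*, each with a standard error of 0.33. This error came from a spread pooled over all 63 groups. Within groups, the standard deviations of log2 RPKM were 0.90 and 0.92 in LD-SD at T5, where the L92 library without a letter took part. In SD they were 0.25 and 0.27. Differences of this size could not be told from the pooled error with 3 samples per group. Whether they pass against the spread of SD alone was not tested. The L65 line, with E1 in place of e1, differed from Clark by between −0.12 and 0.55 for *GmCOL1b*, and the L66 line, with e2 in place of E2, by between −0.26 and 0.45. At the T1 peak in SD, the genotype means of *GmCOL1b* ran from 594 RPKM in L66 to 754 RPKM in L65, and those of *GmCOL1a* from 254 RPKM in Williams 82 to 306 RPKM in L65.

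The response to photoperiod was not shown to differ between genotypes either, whereas the study described variation among genotypes after the shift. In F-tests of genotype by SD minus LD and by LD-SD minus SD at each time point, the lowest adjusted p in limma was 0.89 among the 6 tests of SD minus LD, for 2 genes and 3 time points, and 0.78 among those of LD-SD minus SD. These were 0.25 and 0.44 without the 7 samples. All of these F-tests, also those of SD minus LD, used the fit of all samples. In that fit the standard error of a difference within a genotype was 0.33 for each gene. In the fit of SD and LD alone it was 0.22 for *GmCOL1b* and 0.23 for *GmCOL1a*. Whether the SD minus LD response differs between genotypes against that smaller error was not tested. The shares of transcripts called in these F-tests were 2.47%, 0.314% and 0.137% for SD minus LD at T1, T3 and T5, and 0.111%, 0.366% and 0.889% for LD-SD minus SD.

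The deviations of the 2 genes within a group tended to go together, to a degree that varied with photoperiod and time point. Within groups, the standard deviation of log2 RPKM was 0.42 for *GmCOL1b* and 0.43 for *GmCOL1a*, and that of their log2 ratio was 0.23. The deviations of the 2 genes from their group means had a correlation of 0.86 over all samples, which share libraries and depth scaling within each point. By photoperiod and time point it ran from 0.49 in SD at T5 to 0.98 in LD-SD at T5, where the L92 library without a letter took part and the standard deviations were 0.90 and 0.92. In SD over all time points the standard deviations were 0.25 and 0.27 and the correlation was 0.64. The spread of the ratio was smallest at T1, at 0.14, where counting error alone gave 0.04, and was 0.27 at T3 and 0.24 at T5, where counting error gave 0.14 and 0.15. The ratio was therefore measured most closely at T1.

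Other flowering loci were measured in the same samples. A list of 8 loci named in the study was taken: *GmCOL2a* and *GmCOL2b*, further *CO* homologs, *GmFT2a* and *GmFT5a*, homologs of *FT*, *E1*, *GmGIa* (the E2 locus), *GmPHYA3* (E3) and *GmPHYA2* (E4). Each locus was represented by a single transcript, which for *GmGIa* was Glyma10g36600.3. In SD against LD, 5 of 8 were higher and 3 lower at T1, 3 higher and 3 lower at T3, and 5 higher and 0 lower at T5, with medians of 0.66, −0.04 and 0.27 beside 0.02, −0.10 and 0.05 over all transcripts. Of all transcripts, 33.0% were higher and 28.9% lower at T1, 20.3% and 43.6% at T3, and 35.3% and 20.4% at T5. In LD-SD against SD, 0 were higher and 5 lower at T1, 0 higher and 3 lower at T3, and 1 higher and 4 lower at T5, with medians of −0.20, −0.10 and −0.14 beside −0.0023, 0.06 and −0.05 over all transcripts. Here 12.7% of all transcripts were higher and 15.3% lower at T1, 33.7% and 19.2% at T3, and 16.8% and 29.7% at T5. *GmCOL2a* and *GmCOL2b* had means of at most 1.89 RPKM in any photoperiod and time point.

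The *FT* homologs stayed far below the SD level after the shift at T1, where the homeologs of *CO* came close to it. *GmFT2a* averaged 4.31 RPKM in LD-SD and 22.9 RPKM in SD at T1, which was 18.8%, and *GmFT5a* 14.2 and 53.2 RPKM, which was 26.8%. Their LD-SD minus SD differences were −2.30 ± 0.15 and −1.98 ± 0.14 (adjusted p = 1.05e-27 and 2.82e-24). The difference between these genes and the homeologs of *CO* in this was not tested. At T5, when *GmCOL1b* and *GmCOL1a* were above the SD level in LD-SD, *GmFT2a* and *GmFT5a* were below it, at 18.7% and 44.0%. *GmGIa*, the homolog of *GIGANTEA*, averaged 1.03 RPKM in LD-SD, 0.912 RPKM in SD and 44.2 RPKM in LD at T1, where its SD minus LD difference was −4.55 ± 0.07 (adjusted p = 1.62e-69). It was at its highest at T3 in each photoperiod, when the homeologs of *CO* were low.

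The transcript most like each homeolog was the other. Over the 63 group means of log2(RPKM + 1), the Pearson correlation of *GmCOL1b* and *GmCOL1a* was 0.993, the first of 61179 transcripts for each, and the Spearman correlation was 0.978, again the first. These are descriptions over groups that share their photoperiods and time points. After the homeolog, the 2 transcripts of other loci nearest to *GmCOL1b* were Glyma01g41650.3 and Glyma10g05560.1, with Pearson correlations of 0.990 and 0.988. Those nearest to *GmCOL1a* were Glyma08g00580.2 and Glyma08g00580.1, at 0.986 and 0.985. Over the same groups the correlation with *GmCOL1b* was −0.181 for *GmCOL2a*, −0.388 for *GmCOL2b*, −0.014 for *GmFT2a*, 0.214 for *GmFT5a*, −0.165 for *E1*, −0.516 for *GmGIa*, −0.0071 for *GmPHYA3* and 0.305 for *GmPHYA2*.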

How the data were processed

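RNA libraries were sequenced on a HiSeq instrument and the reads aligned by the authors with Bowtie, version not given in the sources used here, to Williams 82 transcripts. RPKM values per library were deposited by the authors, from their own counting. Both homeologs and the gene lists were chosen with earlier results of these data known. A transcript with an infinite value was left out. In LD-SD L92 at T5, the column whose letter matches no sample title was kept in its group without a letter. Groups came from the sample records, which call the samples of a group biological replicates.

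The level of each transcript, log2 of RPKM plus a pseudocount of 1, was fitted in limma (version 3.58.1, under R 4.3.3) with a coefficient per group and eBayes with trend. Transcripts had a minimum mean of 0.1 RPKM, and Benjamini-Hochberg adjustment (threshold 0.05) was over all of them. SD minus LD, over genotypes and by genotype, used the samples of those photoperiods. Other contrasts and every F-test used all samples. Averages over genotypes treat samples as independent. Reads came out whole within 0.02 in 100% of libraries for both genes. Ratios were tested by permutation in Python 3.11.15. Recovery of mapped reads and transcript length, the limma fit for SD minus LD at T1 and the permutation test were tested on simulated data. The marker check of labels and the F-tests were not. Named are the homeologs, 8 flowering loci and, for each homeolog, the 2 transcripts of other loci with the highest correlation. Alternatives changed the pseudocount, filter, scaling, fit and samples.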

Additional observations from a re-analysis of the deposited data

Results flagged for a closer look

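The difference between time points changed with photoperiod by an interaction term in limma for both homeologs. Between SD and LD, the T1 minus T3 difference was larger in SD by 1.36 for *GmCOL1b* and 1.82 for *GmCOL1a*, and the T1 minus T5 difference by 6.23 and 5.71 on the log2 scale. Between LD-SD and LD, the T1 minus T3 difference was larger in LD-SD by 1.11 and 1.04, and the T1 minus T5 difference by 4.94 and 4.42. Between LD-SD and SD, the T1 minus T5 difference was −1.28 for *GmCOL1b* and −1.29 for *GmCOL1a*, smaller in LD-SD, and the T1 minus T3 difference was −0.78 for *GmCOL1a*. The last interaction did not pass for *GmCOL1b*, at −0.25 (adjusted p = 0.27). Groups had 3 samples each, so single samples were not tested as outliers.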

How the results depend on the processing

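Of the results that answer a comparison, none that passed in the main or the alternative setting changed direction. No call among them changed when low transcripts were kept, when the minimum mean was 1 RPKM or the pseudocount 0.1, when every sample entered the SD minus LD fit, without the eBayes trend, with 1 added to both genes in the ratio, or with transcripts summed per locus, where each homeolog has a single transcript. With median-of-ratios scaling, T1 minus T5 in LD was −0.055 for *GmCOL1b* and −0.18 for *GmCOL1a* and no longer passed, and T3 minus T5 of *GmCOL1b* in LD-SD was 0.32 and passed. Without the 7 samples, *GmCOL1a* in LD-SD minus SD at T1 (−0.24) and *GmCOL1b* in T3 minus T5 in LD-SD (0.41) passed, the distance covered by *GmCOL1b* at T5 was 76.4%, and the LD-SD level at T5 was 204% of SD for *GmCOL1b* and 201% for *GmCOL1a*. Without *G. soja*, the ratio in LD-SD minus LD at T3 passed (0.25) and that in T3 minus T5 in SD did not (0.19). On mean RPKM in place of log2, the distance covered was 121% at T3 and 87.5% at T5 for *GmCOL1b*, and 81.3%, 291% and 84.6% at T1, T3 and T5 for *GmCOL1a*. The causes were not tested.

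With single replicate letters left out, some results moved or lost their call, and they ranged as follows. T1 minus T5 in LD was −0.49 to −0.13 for *GmCOL1b* and −0.62 to −0.28 for *GmCOL1a*, and T3 minus T5 of *GmCOL1a* in LD-SD was 0.23 to 0.57. The log2 ratio was 0.086 to 0.20 in SD minus LD at T1, −0.39 to −0.17 in SD minus LD at T5, 0.043 to 0.11 in LD-SD minus SD at T1, −0.39 to −0.13 in LD-SD minus LD at T5, −0.37 to −0.18 in T3 minus T5 in LD-SD and 0.12 to 0.30 in T3 minus T5 in SD. Some ratio differences that did not pass changed sign. LD-SD minus SD at T5 was −0.050 to 0.11, and Williams 82, L65 and L74 minus Clark changed sign as well. The LD-SD level at T5 was 286% to 329% of SD for *GmCOL1b* and 265% to 329% for *GmCOL1a*, and the distance covered by *GmCOL1b* at T5 was 67.4% to 71.9%. The L92 library without a letter stayed in each of these runs. Without the 7 samples, which include it, the T5 levels were 204% and 201% and that distance 76.4%, outside these ranges.

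Same-lettered samples of different genotypes deviated together in part (mean correlation 0.17 over 561 pairs, 358 of them over 0.1, lowest −0.32). For different letters the mean correlation was −0.083. The letters were not taken to pair samples in the main tests. Where samples of a letter deviate together, p-values of averages over genotypes can be too small, and by how much was not tested. With the replicate block, which drops the library without a letter, T3 minus T5 of *GmCOL1b* in LD-SD was 0.47 and passed, and no other call averaged over genotypes or of the ratio changed. In limma the blocks lay within each photoperiod and time point, so differences between these were taken at a reference letter of each. That fit therefore cannot show whether deviations shared by a letter alter the averaged limma calls. For ratios between photoperiods or between time points, samples of the same letter were paired across these. Deviations shared by a letter were measured only within a photoperiod and time point. The unchanged calls of these ratios therefore do not show whether such deviations alter them. Calls in single genotypes depend on 3 samples per group and on 48 to 100 reads at the lowest values.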
